A study of Danio rerio with 25 samples.

Results

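The libraries described here are ventricular-type tubes of red, sox10-lineage cells of the adult zebrafish heart, compared with and without cryoinjury. They were chosen by raw counts: an RFP-gate library belongs where vmhc (ENSDARG00000079782), the ventricular myosin heavy chain, has more counts than myh6 (ENSDARG00000090637), the atrial one. The rule took 8 of the 18 RFP-gate libraries, of 25 in the series. They are CI_RFP 1, 2, 8 and 12, from cryoinjured hearts, and UN_RFP 1, 2, 4 and 5, from uninjured hearts. The other 10 RFP-gate libraries, 8 CI_RFP and 2 UN_RFP, had more myh6. All fish carried the transgene sox10:CreERT2 together with the reporter vmhcl:loxP-tagBFP-loxP-mCherry-NTR. In this strain an inducible Cre recombinase under sox10 sequences switches a vmhcl reporter from tagBFP to mCherry, so a red cell needs both the recombination and vmhcl reporter activity. Each library was made by Smart-seq2 from 1 tube of 20 sorted cells, and reads were counted per gene. The sources used here do not give the age of the fish, the time after injury, the sort or the animal of each tube. The p-values therefore measure only the spread between tubes, which may in part be technical.

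Cryoinjury freezes a part of the ventricular wall, and the zebrafish heart replaces the lost muscle by division of cardiomyocytes that remain. Near the wound these cells partly lose their contractile organisation, re-express embryonic and stress genes such as nppa and nppb, and shift their energy metabolism from fatty acids towards glycolysis. sox10 encodes a transcription factor of neural crest cells, and the red label marks cells in which its regulatory sequences were active during induction.

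The values that chose the libraries are a description and were not tested. The vmhc counts were 182161, 261076, 128927 and 269883 in CI_RFP 1, 2, 8 and 12, with 0, 0, 0 and 33 counts of myh6. They were 10253, 165496, 161570 and 40482 in UN_RFP 1, 2, 4 and 5, with 0, 0, 0 and 18 of myh6. No library lay near the limit: the nearest outside it was UN_RFP 6, with 765 counts of vmhc against 7691 of myh6. Among the libraries chosen, vmhc itself was lowest in UN_RFP 1, at 1134 CPM (counts per 1000000 of the scaled library size), against 9244 to 14815 CPM in the other UN_RFP and 14935 to 27986 CPM in the CI_RFP libraries.

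**Figure D1:**
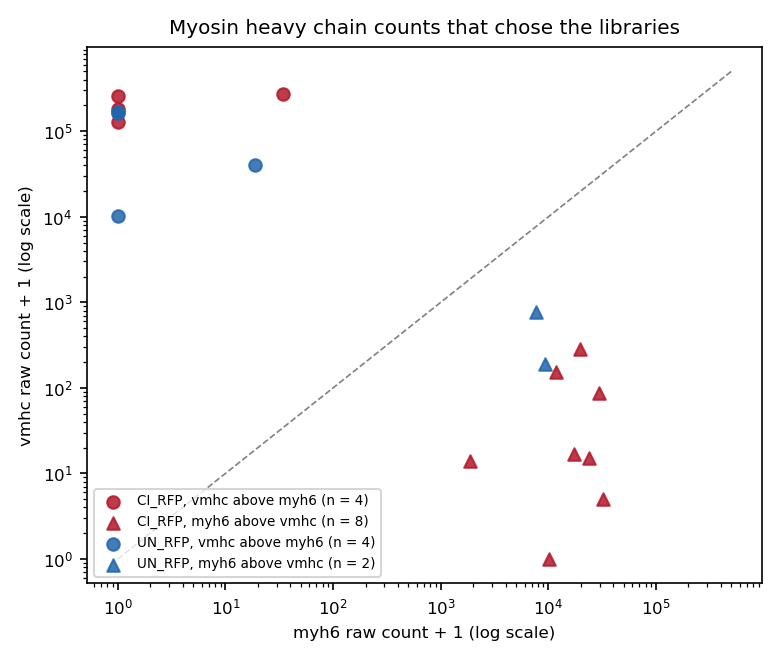
Raw counts of vmhc (y axis) against myh6 (x axis) in the 18 RFP-gate libraries, both with 1 added and on log scales. Circles mark the 8 libraries taken by the rule and triangles the other 10, red for CI_RFP and blue for UN_RFP, and the dashed line marks equal counts; the circles lie at 33 or fewer myh6 counts, far from the line.

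Markers of cardiomyocytes were counted in every library, but unevenly. MYL7, the cardiac myosin light chain, stood at 29787 to 47397 CPM in the CI_RFP and 12186 to 26703 CPM in the UN_RFP libraries. The actin gene actc1a stood at 7404 to 27400 CPM in all 8. TNNT2 (ENSDARG00000020610) and MYBPC3 were lowest in UN_RFP 1, at 655 and 392 CPM. Elsewhere they stood at 5181 to 7842 and 1538 to 2978 CPM. RYR2 was at 0 in UN_RFP 1 and UN_RFP 5, and at 80.2 to 290 CPM elsewhere. Of the other ventricular markers, IRX1 (ENSDARG00000101831), a homeobox gene, was counted in 7 of the 8 libraries, at up to 109.5 CPM. The second IRX1 gene and IRX4 were at 0 in all 8, and HEY2 was counted in 3. Of the atrial markers besides myh6, both NR2F1 genes were at 0 throughout, NR2F2 was counted in CI_RFP 1 alone (2.21 CPM), and TBX5 in 7 of the 8 libraries, at up to 50.2 CPM. The neural crest markers FOXD3, crestin and TFAP2A were also at 0 in all 8, and SOX10 itself reached at most 7.43 CPM (UN_RFP 4).

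A pair of uninjured libraries stood apart. UN_RFP 5 held 1226 detected genes (a count of at least 1), against 5008, 8254 and 5314 in UN_RFP 1, 2 and 4 and 11491, 10657, 5886 and 10261 in CI_RFP 1, 2, 8 and 12. UN_RFP 1 carried leukocyte RNA. The summed level of 8 leukocyte marker genes was 1587 CPM there, 215 CPM in CI_RFP 2 and at most 1.87 CPM in the other 6. Detected genes averaged 9574 ± 2511 (SD, n = 4) in CI_RFP and 4950 ± 2882 (n = 4) in UN_RFP (exact two-sided permutation p = 0.0571, adjusted over 4 measures 0.229; the smallest p possible is 0.0286). Total counts, 6425794 to 11391373 in CI_RFP and 7086557 to 11981012 in UN_RFP, overlapped (exact permutation p = 0.714). The 13 mitochondrially encoded genes took 8.27% to 11.02% of counts in CI_RFP and 8.43% to 22.89% in UN_RFP (exact permutation p = 0.114, adjusted 0.229). A single ID without a name, ENSDARG00000080337, was the most counted and is not among them. It took 16.28%, 14.22%, 34.53% and 21.11% of counts in CI_RFP 1, 2, 8 and 12. In UN_RFP 1, 2, 4 and 5 it took 39.37%, 24.78%, 26.56% and 49.31%, which was not tested. The share taken by the 50 most counted genes was 66.1% ± 5.79 in CI_RFP and 73.2% ± 9.46 in UN_RFP (exact permutation p = 0.229, adjusted 0.305). The UN_RFP libraries also resembled each other less: correlations of log2 CPM ran from 0.34 to 0.64 within UN_RFP and from 0.69 to 0.87 within CI_RFP. In such tubes fewer cells of a type and less RNA per cell cannot be told apart.

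Among 6128 genes tested with edgeR's quasi-likelihood test across the 8 libraries, 1 was higher after injury at a Benjamini-Hochberg adjusted p under 0.05 (0.0163%) and 0 were lower (0%). At an unadjusted edgeR p under 0.05, 215 were higher (3.51%) and 46 lower (0.751%). With no gene changed, a share of about 0.05 would fall under that limit in both directions together, so these counts are descriptions. DESeq2 called 159 higher (2.3% of the 6900 genes to which it gave an adjusted p) and 14 lower (0.203%), and limma's voom called 30 higher (0.49%) and 0 lower (0%). The biological coefficient of variation common to all genes was 1.80, that is, an SD between tubes of 1 group larger than the mean.

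Counting genes whose groups do not overlap, without a test, 579 genes (9.45%) had all 4 CI_RFP libraries above all 4 UN_RFP libraries, vmhc among them. For 7 genes (0.114%) all CI_RFP libraries lay below. Of the 579, 468 had a count in at least 1 UN_RFP library and 34 in all 4, while 111 had none in UN_RFP. Detected genes moved with this: 5278 of the tested genes were at 0 in UN_RFP 5, and a gene at 0 there can lie below CI_RFP but not above it. Without UN_RFP 1 and UN_RFP 5 the counts were 906 above and 511 below. With fewer uninjured libraries a gene more easily shows no overlap in either direction. Of all genes tested, 3834 (62.6%) had a positive log2 fold change, CI_RFP minus UN_RFP, and the median was 0.50. In a fit with the log2 of detected genes as a term, chosen after the data were seen, 0 genes passed and the median over all genes was -1.14.

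homeza, which encodes a protein with homeodomains and leucine zippers, was the gene that passed. It stood at 209.2, 236.9, 51.8 and 118.4 CPM in CI_RFP 1, 2, 8 and 12, and at 0 in all 4 UN_RFP libraries. Every injured tube thus held it and no uninjured tube did. A gene at 0 in UN_RFP passed the filter on low counts only if it was counted in all 4 CI_RFP libraries, so homeza entered the test through the group in which it is high. Against a floor of 3 counts over the 4 UN_RFP libraries (0.0822 CPM) its mean was at least 1875-fold higher after injury (fitted log2 fold change 13.55, SE 2.999, edgeR adjusted p = 0.0384; such a fitted value has no bound where a group is at 0). The call was lost when any 1 library other than UN_RFP 5 was left out (edgeR adjusted p 0.0562 to 0.381). Without UN_RFP 5 its adjusted p was 0.00281, and without UN_RFP 1 and 5 together it was 1.62e-05. With the log2 of detected genes in the model the fitted log2 fold change was 12.38 and the edgeR adjusted p 0.166. homeza was not absent from uninjured red cells as such. In the other 10 RFP-gate libraries, on the scaling of all 18, it stood at 186.4 to 432.7 CPM in the 8 CI_RFP and at 66.4 and 246 CPM in the 2 UN_RFP. The injury difference was larger in the vmhc-rich than in the myh6-rich libraries (edgeR adjusted p = 0.000197 over 15101 genes; the fitted difference, 13.36 on the log2 scale, has no bound either).

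**Figure D2:**
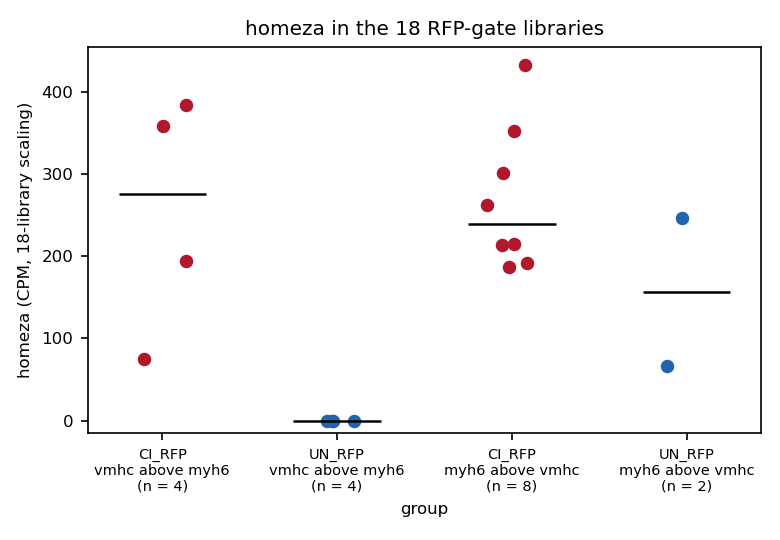
Level of homeza (CPM, scaled over 18 libraries, y axis) in the RFP-gate libraries, by injury and by which myosin heavy chain had more counts. Points are libraries and lines medians; the 4 UN_RFP libraries with more vmhc lie at 0, and the other 14 lie between 66.4 and 432.7 CPM.

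None of the next 10 higher genes by p described here passed, and in all 10 every CI_RFP library lay above every UN_RFP library (genes taken for a small p, so not a finding). Among them, a pair of actins and a chaperone were abundant in both groups. ACTC1 (ENSDARG00000057911), a cardiac alpha-actin, stood at 7240, 7722, 2418 and 2912 CPM in CI_RFP and at 0.221, 1432, 453 and 455 CPM in UN_RFP. The lowest injured tube was above the highest uninjured one, and UN_RFP 1 held almost none (8.67-fold higher mean; log2 fold change 3.12, SE 0.80, edgeR adjusted p = 0.152; 2.41 without UN_RFP 1 and 5). In the myh6-rich libraries ACTC1 was also higher after injury (log2 fold change 9.51, SE 1.89, edgeR adjusted p = 0.00606 over 15101 genes). On the scaling of all 18 it stood at 10.8 to 8293 CPM in those 8 CI_RFP libraries. The only 2 UN_RFP libraries there held 0.196 and 7.08 CPM. The difference between the chamber types did not pass (-6.17, edgeR adjusted p = 0.204). ACTA1 (ENSDARG00000055618), another sarcomeric actin, stood at 9602, 14814, 8006 and 13042 CPM in CI_RFP and 2067, 5814, 1463 and 3063 CPM in UN_RFP. Its groups lay apart with no library at 0 (3.66-fold; log2 fold change 1.87, SE 0.59, edgeR adjusted p = 0.385). Sarcomeric actin genes have near-identical coding sequences, and the sources used here do not say how shared reads were assigned, so their separate levels are uncertain.

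hsp90aa1.1, an Hsp90 chaperone that zebrafish muscle needs for myosin folding, stood at 7867, 8521, 4885 and 5885 CPM in CI_RFP. It stood at 239, 2708, 1233 and 5.25 CPM in UN_RFP. UN_RFP 5 was the lowest, and UN_RFP 2, the uninjured library with most detected genes, was the highest of its group (6.49-fold; log2 fold change 2.7, SE 0.71, edgeR adjusted p = 0.191). Without UN_RFP 1 and 5 the log2 fold change was 1.76 (edgeR adjusted p = 0.115). Voom, unlike edgeR, called hsp90aa1.1 (adjusted p = 0.0103), ACTC1 (0.0078), ACTA1 (0.00419) and MYL7 (2.94e-08). In the voom fit the median log2 fold change of all genes was 2.59. MYL7 (1.03) and ACTA1 (2.07) lay below that median, and hsp90aa1.1 (4.06) and ACTC1 (5.65) above it.

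The other 7 of these genes were at 0 in all 4 UN_RFP libraries, and the filter kept such genes only where all 4 CI_RFP libraries held them (111 of 111 genes). CTH (ENSDARG00000032206), an enzyme of cysteine synthesis, stood at 13.9, 31.1, 51.5 and 46.4 CPM after injury, at least 435-fold above the floor. BMP10 (ENSDARG00000109233), a secreted growth factor, stood at 18.6, 18.4, 55.6 and 36.7 CPM. PCNA, the sliding clamp of DNA replication, stood at 12.3, 8.69, 46.6 and 22.1 CPM. For these 3 genes CI_RFP 8, the injured tube with the fewest detected genes, was the highest. HAPSTR1, which human cells use in stress responses, HYAL1, a hyaluronidase, IRF2BPL and si:ch211-28p3.4 stood lower on average, between 2.66 and 65.7 CPM in single CI_RFP libraries. The edgeR adjusted p was 0.385 for each of the 7. Several were not absent from uninjured red cells as such. On the scaling of all 18, the 2 UN_RFP libraries with more myh6 held PCNA (27.0 and 83.6 CPM), HAPSTR1 (16.7 and 39.2 CPM) and HYAL1 (20.2 and 21.1 CPM). BMP10 and IRF2BPL were counted in 1 of these 2 libraries, and CTH and si:ch211-28p3.4 in neither. Voom called CTH (adjusted p = 0.0143), BMP10 (0.0171), HAPSTR1 (0.0398) and PCNA (0.0496), and PCNA also passed with edgeR and the spread of 18 libraries (0.0297). In the fits of the 8 libraries these genes entered through the group in which they are high, so the calls are descriptions only.

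**Figure D3:**
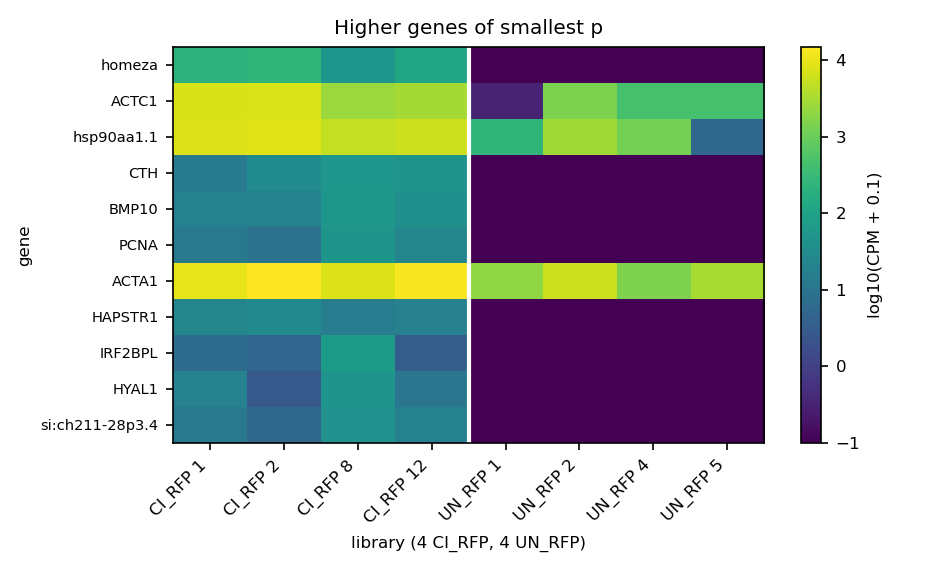
Level of 11 genes of smallest p that were higher in CI_RFP, as log10 of CPM with 0.1 added (colour), in each of the 8 libraries; the white line divides CI_RFP from UN_RFP. Genes at 0 show the darkest colour, and 8 of the 11 genes are at 0 in all UN_RFP libraries.

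Sarcomere genes lay mostly higher after injury, though no member passed the test. Of 50 sarcomere gene IDs, 38 were tested, 31 had a positive log2 fold change, and the median was 0.83 beside 0.50 for all genes. In 7 (18.4%, beside 9.45% of all genes) every CI_RFP library lay above every UN_RFP library. Genes that passed the filter only through the CI_RFP libraries count among these here and in every list, so the counts are descriptions. Without UN_RFP 1 the sarcomere median was 0.53 and that of all genes 0.85, and without UN_RFP 1 and 5 they were 0.18 and 0.51, so the list no longer lay above all genes. MYL7 stood at 31736, 37734, 29787 and 47397 CPM in CI_RFP and 12186, 26703, 13740 and 22497 CPM in UN_RFP. The groups lay close but apart (1.95-fold; log2 fold change 0.96, SE 0.42, edgeR adjusted p = 0.715). tnnc1a, a cardiac troponin C, stood at 1958 to 4069 CPM in CI_RFP and 660 to 1420 CPM in UN_RFP. The others were xirp1 (ENSDARG00000030722), an actin-binding protein of the intercalated disc, ldb3b and MYOZ2 (ENSDARG00000037266) of the Z-disc, ACTA1 and the small heat shock protein gene CRYAB (ENSDARG00000101380). CRYAB was at 4.23 to 67.6 CPM in CI_RFP and at 0.246 CPM in UN_RFP 2 alone of the uninjured libraries. Not every sarcomere gene lay this way: MYBPC3, myosin-binding protein C, averaged 1796 CPM in CI_RFP and 1811 CPM in UN_RFP.

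Genes of calcium handling and excitation had 15 of 17 tested members with a positive change and a median of 1.23, with 2 members (11.8%) without overlap, close to the 9.45% of all genes. Without UN_RFP 1 and 5 the median was 0.23, below the 0.51 of all genes. JPH2, which holds the junction of plasma membrane and sarcoplasmic reticulum, stood at 12.1 to 47.2 CPM in CI_RFP and 0 to 7.14 CPM in UN_RFP. GJA5 (ENSDARG00000069450), a connexin of gap junctions, stood at 6.56, 1.80, 26.4 and 25.9 CPM in CI_RFP and at 0 in UN_RFP (at least 184-fold; edgeR adjusted p = 0.385). atp2a2a, which encodes the pump that refills the sarcoplasmic reticulum with calcium, stood at 1829, 3014, 2239 and 3577 CPM in CI_RFP and at 360, 1870, 1053 and 932 CPM in UN_RFP. Its groups overlapped at CI_RFP 1 and UN_RFP 2 (log2 fold change 1.34, SE 0.82, edgeR adjusted p = 1).

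The cardiac transcription factors showed overlap in 15 of 16 members tested. The 1 without overlap (6.25%) was a smaller share than the 9.45% of all genes. Their median was 1.07, beside 0.50 for all genes. Without UN_RFP 1 and 5 it was 0.10, below that of all genes in the same fit. TBX20 stood at 45.7, 86.6, 115 and 113 CPM in CI_RFP and at 31.5, 61.3, 10.7 and 0 CPM in UN_RFP. NKX2-5 stood at 61.5 to 153 CPM in CI_RFP and 0 to 88.0 CPM in UN_RFP, HAND2 at 55.0 to 249 and 0 to 98.5 CPM, and TBX5 at 15.1 to 40.9 and 0 to 50.2 CPM. In each of these the 0 was UN_RFP 5, and leaving aside that library the ranges still overlapped. gata4 was too low to test, at 0.606 to 6.42 CPM in CI_RFP, with 8.99 CPM in UN_RFP 4 and 0 in the other 3 uninjured libraries. MEF2C (ENSDARG00000029764), a muscle gene activator, was the member without overlap, at 14.2 to 45.3 CPM in CI_RFP and 7.06 CPM in UN_RFP 2 alone of the uninjured libraries.

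Among 31 tested genes of dedifferentiation and the wound border, 20 (64.5%, beside 62.6% of all genes) had a positive change (median 0.99), and 5 (16.1%, beside 9.45%) had no overlap. Without UN_RFP 1 and 5 the median was 0.55, close to that of all genes in the same fit. nppb, the B-type natriuretic peptide of stretched or stressed cardiomyocytes, stood at 3913, 4356, 2157 and 1625 CPM in CI_RFP. It stood at 17.0, 1308, 789 and 0.457 CPM in UN_RFP. UN_RFP 2 lay closest below the lowest injured tube, and UN_RFP 1 and 5 held little (5.70-fold; log2 fold change 2.51, SE 0.87, edgeR adjusted p = 0.385, and 1.5 without UN_RFP 1 and 5). nppa, the A-type peptide, stood at 1633, 2305, 676 and 1224 CPM in CI_RFP and 27.2, 1644, 896 and 307 CPM in UN_RFP, with overlap (log2 fold change 1.02, SE 0.94, edgeR adjusted p = 1). LMNA, a lamin of the nuclear envelope, stood at 88.5, 89.5, 33.6 and 61.9 CPM in CI_RFP and at 0, 2.13, 1.65 and 0 CPM in UN_RFP. The other members without overlap were xirp1, ATF3 and SOCS3 (ENSDARG00000026611), a feedback inhibitor of cytokine signalling. Lists share members: xirp1 also counts among sarcomere genes, and ATF3 and SOCS3 among immediate early genes. CRYAB counts among both sarcomere and heat shock genes. The shares of different lists are thus not separate observations.

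Immediate early genes, which cells transcribe within minutes of a stimulus, had 34 of 44 tested members with a positive change, a median of 1.31, and 11 members (25%, beside 9.45%) without overlap. With DESeq2's size factors (RLE) in place of TMM, 7 of the 44 lay apart, beside 511 of all 6128 genes. ATF3, a stress-induced transcription factor, stood at 633, 973, 487 and 289 CPM in CI_RFP and at 2.54, 148, 57.1 and 0 CPM in UN_RFP. All injured tubes were above all uninjured ones (11.5-fold; log2 fold change 3.52, SE 1.43, edgeR adjusted p = 0.577). MYC (ENSDARG00000007241), a growth-promoting transcription factor, stood at 460.5 to 804 CPM in CI_RFP, at 403 and 337 CPM in UN_RFP 2 and 4, and under 1 CPM in UN_RFP 1 and 5. FOSB, an AP-1 subunit, stood at 224 to 474 CPM in CI_RFP and 0 to 183 CPM in UN_RFP. MAFK, a small Maf factor, was at 1.06 to 6.53 CPM in CI_RFP and at 0 in UN_RFP. JUND, KLF6, NR4A3, DUSP2, csrnp1a, ppp1r15a and SOCS3 made up the rest.

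Heat shock and protein folding genes had 29 of 35 tested members with a positive change (median 1.16), and 11 (31.4%, beside 9.45%) without overlap, none of which passed with edgeR. BAG3, a co-chaperone that clears damaged sarcomere proteins, stood at 2365, 4115, 2258 and 2109 CPM in CI_RFP and at 0, 1796, 471 and 8.91 CPM in UN_RFP. Here UN_RFP 2 lay just below the lowest injured tube (4.77-fold; edgeR unadjusted p = 0.0634). dnajb1a, an Hsp40 co-chaperone, stood at 2.19 to 29.8 CPM in CI_RFP and at 0 in UN_RFP. hsf1, the transcription factor that induces heat shock genes, stood at 5.66 to 27.3 CPM in CI_RFP and reached 1.19 CPM in UN_RFP 4 alone of the uninjured libraries. AHSA1 (ENSDARG00000028664), an activator of Hsp90, stood at 44.6 to 101 CPM in CI_RFP and at 4.27 CPM in UN_RFP 2 alone. HSPA4 (ENSDARG00000004754) stood at 141 to 280 CPM in CI_RFP and 0.228 to 107 CPM in UN_RFP. Voom called BAG3 (adjusted p = 0.0253) and AHSA1 (0.0171), besides the heat shock genes hsp70l (0.0144) and hspa1b (0.00976). On the scaling of all RFP-gate libraries, hsp70l stood at 4900 to 9709 CPM in the vmhc-rich CI_RFP. In UN_RFP 1, 2, 4 and 5 it stood at 0, 7713, 3108 and 4.535 CPM. hspa1b stood at 504 to 2424 CPM and at 0, 796.4, 294.1 and 0 CPM. In both genes UN_RFP 2 lay above the lowest injured tube. The median of all genes in the voom fit was 2.59, so these calls are descriptions only.

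Of 29 glycolysis genes tested, 27 had a positive change (median 0.92), and 10 (34.5%, beside 9.45% of all genes) had no overlap. With DESeq2's size factors (RLE) in place of TMM 3 of the 29 lay apart, beside 511 of all 6128 genes. With RLE the number was also smaller for heat shock (9 of 35), sarcomere (5 of 38) and fatty acid genes (5 of 36). ALDOA (ENSDARG00000011665), an aldolase, stood at 5596, 8027, 6504 and 8550 CPM in CI_RFP and at 2353, 4023, 2139 and 1705 CPM in UN_RFP. No uninjured tube reached the lowest injured one (2.81-fold; log2 fold change 1.49, SE 0.65, edgeR adjusted p = 0.737). ENO1 (ENSDARG00000022456), an enolase, stood at 915 to 1539 CPM in CI_RFP and 390 to 718 CPM in UN_RFP. LDHA, which makes lactate, stood at 659 to 1272 and 274 to 643 CPM. SLC2A1 (ENSDARG00000001437), a glucose transporter, was at 6.81 to 37.1 CPM in CI_RFP and at 0.411 CPM in UN_RFP 2 alone. PDK2 (ENSDARG00000020876), a kinase that holds pyruvate back from oxidation, stood at 95.7 to 173 CPM in CI_RFP and 0 to 43.0 CPM in UN_RFP.

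Genes of fatty acid uptake and oxidation also lay higher after injury in most members, 29 of 36 (median 1.16), with 7 (19.4%, beside 9.45%) without overlap. Without UN_RFP 1 and 5 the median was 0.60, close to that of all genes in the same fit. HADHA, of the mitochondrial trifunctional protein, stood at 159 to 230 CPM in CI_RFP and at 0, 97.8, 86.5 and 0 CPM in UN_RFP. cpt1ab and CPT2, which carry fatty acids into mitochondria, ACAA2, DECR1, CRAT (ENSDARG00000016545) and LPL (ENSDARG00000087697), a lipase, were the others. ACADVL, an acyl-CoA dehydrogenase, had the smallest p of the list and overlapped, at 529 to 2667 CPM in CI_RFP and 0 to 793 CPM in UN_RFP (edgeR adjusted p = 0.771). Of 76 tested nuclear genes of oxidative phosphorylation, 47 had a positive change (median 0.19), and 4 (5.26%) had no overlap, less than the 9.45% of all genes. ATP5F1A, a subunit of ATP synthase, stood at 2070 to 8313 CPM in CI_RFP and 623 to 2230 CPM in UN_RFP.

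All 13 mitochondrially encoded genes had a negative log2 fold change (median -1.14), and none passed with edgeR. Without UN_RFP 5 the median was -0.63, and without UN_RFP 1 and 5 it was -0.22, with 4 of the 13 positive. MT-CO2, a subunit of cytochrome c oxidase, stood at 14465, 12161, 21143 and 25529 CPM in CI_RFP and at 38679, 35179, 22432 and 135836 CPM in UN_RFP. UN_RFP 5 was far above the rest, and UN_RFP 4 lay within the injured range (log2 fold change -1.66, SE 0.39, edgeR adjusted p = 0.0677). The call depended on scaling and libraries: with RLE scaling the value was -2.11 (edgeR adjusted p = 0.000462), without UN_RFP 1 it was -1.80 (0.00476), and without UN_RFP 5 it was -0.78 (0.529). MT-ND6, a subunit of complex I, was the member with all CI_RFP libraries below UN_RFP, at 688, 570, 830 and 715 CPM against 1944, 1447, 1651 and 3511 CPM. Its groups lay apart (3.05-fold lower; log2 fold change -1.61, SE 0.89, edgeR adjusted p = 1). MT-CO3 stood at 13767 to 28977 CPM in CI_RFP and 15811 to 67212 CPM in UN_RFP. The summed level of the 13 genes was 73739 to 124067 CPM in CI_RFP, and 193650, 140520, 71416 and 370466 CPM in UN_RFP 1, 2, 4 and 5. It was highest in UN_RFP 5, the library of fewest genes. With the log2 of detected genes in the model the list's median was -0.44, above the -1.14 of all genes in that fit.

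The lower genes of smallest p rested mostly on 1 library. GSK3B, a kinase that restrains Wnt signalling, stood at 5.90, 3.37, 2.27 and 2.90 CPM in CI_RFP and at 0, 1.72, 0.917 and 1553 CPM in UN_RFP. Leaving out UN_RFP 5 turned its log2 fold change from -6.75 (SE 1.89, edgeR adjusted p = 0.356) to 2.08. NAP1L4, KPNA1, RPRD1B, PTPN23, rrp1 and c6.2 were likewise highest in UN_RFP 5, at 648 to 2102 CPM, against at most 405 CPM in any other library. WNT11, a Wnt ligand, was also highest there, at 1031 CPM, with 0 to 65.0 CPM in the other UN_RFP and 0 to 18.4 CPM in the CI_RFP libraries. pfn1, an actin-binding profilin, was highest in UN_RFP 1, at 2178 CPM, and at most 127.6 CPM elsewhere. Of all genes tested, 290 were highest in UN_RFP 5.

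**Figure D4:**
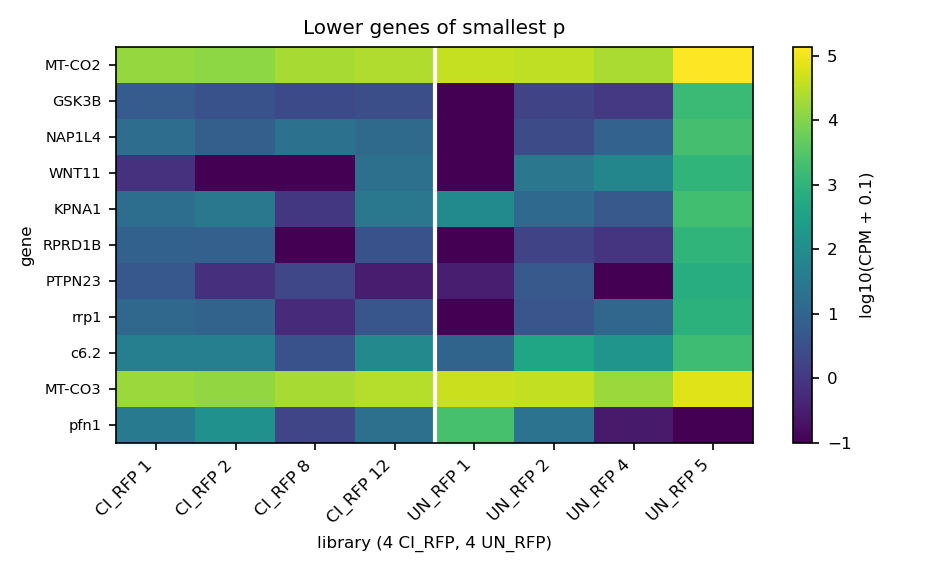
Level of 11 genes of smallest p that were lower in CI_RFP, as log10 of CPM with 0.1 added (colour), in each of the 8 libraries; the white line divides CI_RFP from UN_RFP. In 10 of the 11 genes the brightest cell is UN_RFP 5, and in pfn1 it is UN_RFP 1.

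The 7 genes with all CI_RFP libraries below UN_RFP were few enough to name after their values were seen. Besides MT-ND6 they were MRPS18A, of the mitochondrial ribosome, CHCHD7, STXBP5 (ENSDARG00000029234), ifi27.2 and a pair of IDs without a name. MRPS18A stood at 15, 9.63, 9.39 and 31.4 CPM in CI_RFP and 56.1, 55.8, 73.4 and 584 CPM in UN_RFP. ifi27.2 stood at 14.9, 8.77, 0 and 7.88 CPM in CI_RFP and 108, 20.3, 77.0 and 573 CPM in UN_RFP. In both, UN_RFP 5 was the highest, and neither gene passed (edgeR adjusted p = 1 and 0.686).

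Ribosomal protein genes had a negative change in 61 of 74 tested members, with a median of -0.51 and none without overlap in either direction. UN_RFP 4 had the highest summed level (63360 CPM, against 25356 to 38901 CPM in CI_RFP). Without it the list's median was 0.06, still below the 0.85 of all genes in that fit. RPL22 stood at 45.3 to 133.5 CPM in CI_RFP and at 21.7, 86.6, 503 and 663 CPM in UN_RFP. The unfolded protein response had 11 positive and 12 negative members (median -0.11). Hypoxia and growth factor genes had 19 of 33 positive (57.6%, median 0.44, both below the 62.6% and 0.50 of all genes), with 5 (15.2%, beside 9.45%) without overlap. One of these, VEGFA (ENSDARG00000103542), the vascular growth factor, stood at 57.1, 57.4, 31.5 and 56.7 CPM in CI_RFP and at 0, 1.23, 4.22 and 0 CPM in UN_RFP. Every injured tube lay well above the uninjured ones (37.2-fold; log2 fold change 5.19, SE 2.41, edgeR adjusted p = 0.914). WWTR1, a coactivator of the Hippo pathway, was at 1.48 to 7.47 CPM in CI_RFP and at 0 in UN_RFP. Of 13 Wnt pathway genes tested, 10 had a positive change (median 0.93), and 1 (7.69%) had no overlap.

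**Figure D5:**
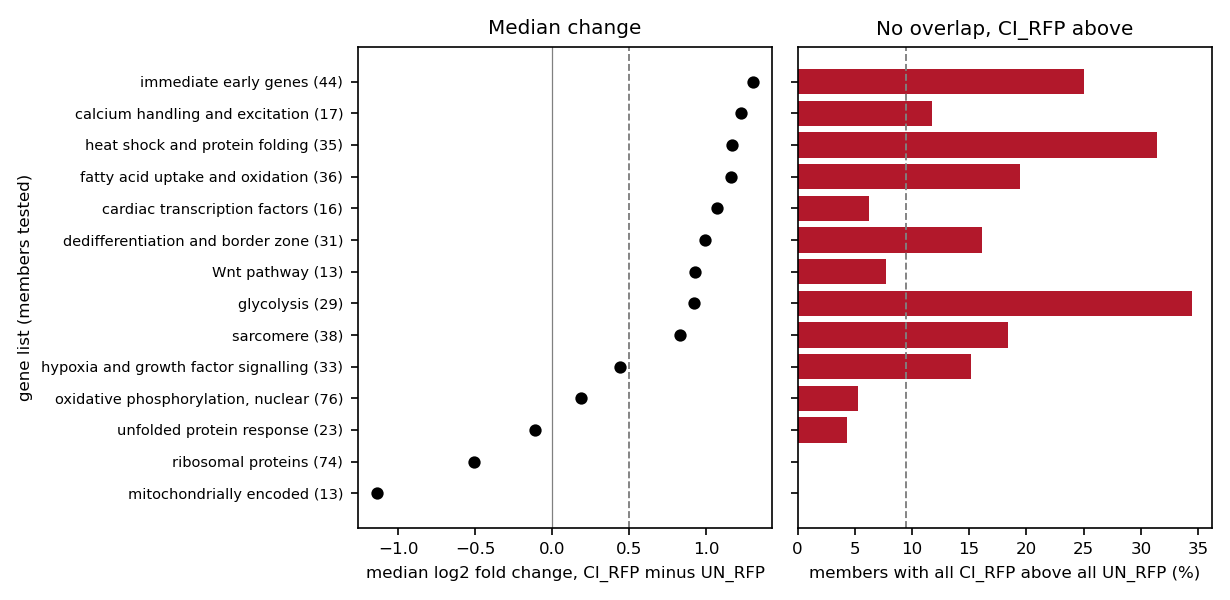
Left, median log2 fold change (CI_RFP minus UN_RFP) of each gene list with at least 10 tested members, whose number is in brackets. Right, percent of those members with all CI_RFP above all UN_RFP libraries; dashed lines give the values over all 6128 genes, 0.50 and 9.45%, and glycolysis (34.5%) and heat shock genes (31.4%) stand highest on the right with this scaling.

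Few genes of cell division passed the filter on low counts. Of 50 gene IDs of the cell cycle and DNA replication, 44 had a count in some library, and 3 were tested. Their summed level was 169, 72.1, 82.7 and 341 CPM in CI_RFP and 0.442, 11.9, 21.6 and 0 CPM in UN_RFP, higher in every injured tube. The number of the 50 IDs with a count was 35, 19, 5 and 31 in CI_RFP, and 1, 4, 5 and 0 in UN_RFP. CI_RFP 8 and UN_RFP 4, close in detected genes (5886 and 5314), each held 5 of the IDs. UN_RFP 2, with more detected genes (8254), held 4 of the IDs and summed to 11.9 CPM, against 82.7 CPM in CI_RFP 8. In CI_RFP 8 most of the sum came from PCNA (46.65 CPM) and CCNB2. Whether the difference in detected genes accounts for these sums was not tested. CCNB2, a mitotic cyclin, stood at 5.08, 11.4, 33.0 and 4.15 CPM in CI_RFP and at 0, 6.32, 8.34 and 0 CPM in UN_RFP, with overlap.

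Neural crest genes gave little signal in either group. Of 32 IDs, 12 had a count and 3 were tested. EDNRA, an endothelin receptor, stood at 0.757 to 42.6 CPM in CI_RFP and 0 to 24.3 CPM in UN_RFP. ednrab, another endothelin receptor, stood at 18.6 to 48.8 CPM in CI_RFP, at 42.0 CPM in UN_RFP 2 and at 0 in the other 3. SOX10 stood at 0.574, 1.72, 4.09 and 1.14 CPM in CI_RFP and 0, 0.985, 7.43 and 0 CPM in UN_RFP. These levels overlapped, and no direction held across scalings (log2 fold change -0.17 with TMM, 0.15 with RLE).

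Levels of markers of other cell types differed between tubes. The fibroblast and epicardial markers TCF21, TBX18, wt1b, WT1 and PDGFRA were at 0 in all 8, and the summed level of the 9 such markers was 0 to 4.43 CPM in CI_RFP and 0 to 21.9 CPM in UN_RFP. The full list of 29 fibroblast and epicardial gene IDs, which holds genes that other cells also express, such as TAGLN and krt8, summed to 659, 285, 94.4 and 278 CPM in CI_RFP and to 1792, 730, 1481 and 3241 CPM in UN_RFP. By that sum every uninjured tube lay above every injured one. The 4 endothelial markers summed to 1695 CPM in UN_RFP 5, all of it TIE1, a receptor of endothelial cells, and to 0 to 34.3 CPM elsewhere. The full list of 32 endothelial and endocardial gene IDs summed to 642, 72.9, 39.7 and 54.65 CPM in CI_RFP. In UN_RFP 1, 2, 4 and 5 it summed to 1598, 70.5, 308 and 1695 CPM. Hemoglobin and other erythrocyte markers reached 413.5 CPM in UN_RFP 5 and 131 CPM in UN_RFP 2, and at most 1.97 CPM elsewhere. CORO1A, a leukocyte coronin, stood at 458 CPM in UN_RFP 1, 33.1 CPM in CI_RFP 2 and at most 1.87 CPM elsewhere. CXCR4 (ENSDARG00000041959), a chemokine receptor of leukocytes, stood at 227 CPM in UN_RFP 1 and at most 6.97 CPM elsewhere. Their part in the injury differences was not tested.

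The direct comparison with the myh6-rich tubes found 6 genes whose injury difference was not the same, 1 higher (0.00662% of 15101 genes) and 5 lower (0.0331%). homeza was the higher one. acta2, smooth muscle actin, was the lower gene counted in most libraries. On the scaling of all 18 libraries it stood at 0.44 to 1.14 CPM in the 4 CI_RFP with more vmhc and at 0 to 1843 CPM in the 4 UN_RFP, whose median was 780 CPM. It stood at 0.0903 to 2207 CPM in the 8 CI_RFP with more myh6 and at 114 and 213 CPM in the 2 UN_RFP. The difference of injury changes was -12.11 on the log2 scale (SE 2.54, edgeR adjusted p = 0.007). FN1 (ENSDARG00000019815), fibronectin of the extracellular matrix, was at 0 in the 4 injured vmhc-rich tubes and in 3 of the 4 uninjured ones, and reached 1273 CPM in the injured myh6-rich tubes (edgeR adjusted p = 0.00674; the fitted difference, -14.89, has no bound). The 2 UN_RFP libraries with more myh6 limit this comparison.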

How the data were processed

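RNA of 25 tubes was measured, and 18 RFP-gate tubes entered the comparisons here. The BFP-gate tubes entered only an alternative estimate of the spread. The authors deposited raw read counts per Ensembl gene. Per the submitters' processing notes, FastQC 0.11.5, HISAT2 2.1.0, featureCounts 1.6.0 and the GRCz11 build were used; the sources used here give neither strand nor multi-mapping settings. Each table held 31901 genes, of which 29178 (91.5%) matched a name in a table of mostly human-style symbols. Names shared by several IDs are printed with the ID. vmhc is listed there as MYH7 and is called vmhc. Oligo-dT priming and amplification without molecular identifiers make several reads from 1 molecule, so the floors reflect counting error alone.

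The 8 libraries with more vmhc than myh6 counts were compared, CI_RFP minus UN_RFP, by the two-sided quasi-likelihood test of edgeR 4.0.16 (TMM, robust, filterByExpr with groups) in R 4.3.3. A gene could pass the filter through 4 libraries, so genes counted in 1 group only could be tested. The threshold was a Benjamini-Hochberg adjusted p of 0.05 over all genes tested. CPM are per 1000000 of TMM-scaled library size. The SE was derived from each log2 fold change and its F statistic, so it restates the p-value. A second edgeR fit of 4 group means over all 18 RFP-gate libraries tested the difference of injury changes between vmhc-rich and myh6-rich libraries. Library measures were compared by exact permutation tests (Python 3.11.15, scipy 1.17.1, numpy 2.4.6, pandas 2.3.3). Alternatives were RLE or total-count scaling, other filters, DESeq2 1.42.0, voom (limma 3.58.1), pooled spreads, and libraries left out. The steps were tested on simulated data. Replicate numbers follow deposition order.

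The libraries, the 25 gene lists (954 symbols, 924 matched) and the tests were chosen with earlier results of these data known. Genes named are the 12 higher and 12 lower of smallest p with a count in at least 3 libraries of the higher group, up to 4 called members or else the 2 of smallest p from each list, and fixed cardiac anchors. Of the 12 in each direction, 11 are given, and 1 is not reported here. Members of lists without overlap, MYBPC3 and genes called by voom were named beyond this rule after their values were seen.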

Additional observations from a re-analysis of the deposited data

Results flagged for a closer look

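In 144 sets of 4 libraries (a named gene or library measure in 1 group), 33 had a library far from the other 3 by Dixon's test at 95%, where chance gives about 1 in 20 for normally distributed values. In 9 of the 33 the other 3 libraries were at 0, where the test flags any value. UN_RFP 5 was the distant library in 8 sets, UN_RFP 2 in 8, UN_RFP 1 and UN_RFP 4 in 5 each, CI_RFP 8 in 4, CI_RFP 12 in 2, CI_RFP 2 in 1 and CI_RFP 1 in 0.

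UN_RFP 5 was far above the other uninjured libraries in MT-CO2 (135836 CPM), NAP1L4 (2102 CPM), KPNA1 (1914 CPM), GSK3B (1553 CPM), RPRD1B (1044 CPM), WNT11 (1031 CPM), rrp1 (854.2 CPM) and PTPN23 (648 CPM). UN_RFP 1 was far above in pfn1 (2178 CPM), krt8 (1658 CPM), CORO1A (458.2 CPM), CXCR4 (ENSDARG00000041959; 226.9 CPM) and blvrb (54.08 CPM). UN_RFP 2, with the most detected genes of its group, was far above in ednrab (41.96 CPM), TRIB3 (26.44 CPM), EDNRA (24.31 CPM), APLN (10.1 CPM), MEF2C (ENSDARG00000029764; 7.062 CPM) and tfr1a (2.381 CPM), and in SLC2A1 (ENSDARG00000001437; 0.4106 CPM) and CRYAB (ENSDARG00000101380; 0.2463 CPM). UN_RFP 4 was far above in NOTCH1 (ENSDARG00000052094; 15.22 CPM), gata4 (8.986 CPM), SOX10 (7.427 CPM), smtnl1 (5.685 CPM) and LPL (ENSDARG00000087697; 3.209 CPM).

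Among the injured libraries, CI_RFP 8 was far above in IRF2BPL (65.74 CPM) and dnajb1a (29.84 CPM), and far below in VEGFA (ENSDARG00000103542; 31.51 CPM) and in total counts (6425794). CI_RFP 12 was far above in CRYAB (67.61 CPM) and WNT11 (18.35 CPM), and CI_RFP 2 in CORO1A (33.11 CPM).

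The injury difference itself differed between vmhc-rich and myh6-rich libraries for 6 genes by the edgeR test of the difference, on the log2 scale. The values were 13.36 for homeza, -12.11 for acta2, -14.89 for FN1 (ENSDARG00000019815), -25.34 for col5a3a, a collagen, -22.54 for cd7al and -21.38 for hamp, the iron hormone hepcidin. Of these, col5a3a, cd7al and hamp were each counted in 1 of the 4 vmhc-rich UN_RFP libraries and in neither myh6-rich UN_RFP library. FN1 was at 0 in all vmhc-rich CI_RFP libraries and homeza in all vmhc-rich UN_RFP libraries. The fitted values of these 5 genes have no bound.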

How the results depend on the processing

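The count of 1 gene called for injury became 2 with RLE scaling (homeza and MT-CO2), 0 with total counts only, 0 with no filter on low counts, 173 with DESeq2, 30 with voom, 23 and 31 with the spread of 18 and of 25 libraries, and 6 when all 18 RFP-gate libraries were compared by injury alone. Added after the data were seen, it was 0 with the log2 of detected genes in the model and 5 without both UN_RFP 1 and UN_RFP 5. It stayed at 1 with at least 10 counts in 4 libraries and without the mitochondrial genes and the most counted ID. It ran from 0 to 3 with 1 library left out. The edgeR adjusted p of homeza was 0.0506 with total counts only, 0.064 with no filter and 0.844 over all 18 libraries. Leaving out libraries with few detected genes removed UN_RFP 5 alone and equals leaving it out. The median log2 fold change of all genes moved from 0.50 to 0.28 with RLE, 2.59 with voom (5449 of 6128 positive) and 1.16 without UN_RFP 2.

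Genes whose injury difference differed by chamber type numbered 6, 2 with voom and 1 to 12 with 1 library left out, falling to 1 without UN_RFP 3 or UN_RFP 6. Genes with CI_RFP below UN_RFP rose from 7 to 13 with RLE, to between 45 and 84 without UN_RFP 1 or UN_RFP 5, and to 511 without both, with 906 above. For total counts per library the difference lay from -284100 to 1599000 with 1 library left out. The direction of detected genes and of both shares held with each library left out.

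With 1 library left out the log2 fold change ran from -7.16 to 2.08 for GSK3B, -5.63 to 1.97 for NAP1L4, -6.21 to 2.62 for RPRD1B, -7.41 to 0.12 for PTPN23, -5.58 to 0.47 for rrp1, -4.92 to 2.58 for pfn1, -2.33 to 0.45 for krt8, -2.05 to 0.96 for NOTCH1 (ENSDARG00000052094), -5.75 to 0.37 for CXCR4 (ENSDARG00000041959), -6.69 to 9.45 for CORO1A, -1.58 to 1.55 for blvrb and -0.87 to 2.46 for SOX10. With detected genes in the model it turned to 3.37 for GSK3B, 3.82 for NAP1L4, 1.27 for KPNA1, 3.88 for RPRD1B, 0.55 for PTPN23, 2.14 for rrp1, -3.503 for IRX1 (ENSDARG00000101831), -0.86 for smtnl1, -0.37 for TBX5, -1.66 for EDNRA, -0.34 for ACADVL, 0.15 for RPS25, -3.63 for TIMP2 (ENSDARG00000061226) and -1.28 for HAND2. Without both UN_RFP 1 and UN_RFP 5 it turned to 1.43 for GSK3B, 1.33 for NAP1L4, 1.04 for KPNA1, 1.92 for RPRD1B, 1.98 for pfn1, -0.30 for IRX1, -0.23 for TBX5, 9.57 for CORO1A and 0.96 for blvrb. With voom it turned to 0.89 for NAP1L4, 1.76 for pfn1, 0.48 for NOTCH1, 1.52 for CORO1A, 0.80 for blvrb and 1.78 for SOX10. Over all 18 libraries it turned to 0.31 for c6.2, -0.43 for IRX1, 3.14 for SPARC and 0.56 for krt8. With RLE it turned to -0.0034 for IRX1 and 0.15 for SOX10, which was 0.15 with DESeq2 and 0.15 with the spread of 25 libraries. Of 1319 alternative values of 68 named genes, 1231 kept direction and side of the threshold, 26 newly passed, 11 no longer passed and 51 reversed. The cause was not tested. With detected genes in the model the median of all genes was -1.14. In that fit the medians turned negative for the Wnt pathway (-1.52), hypoxia and growth factors (-1.10), nuclear oxidative phosphorylation (-0.96) and dedifferentiation (-0.55). They also turned negative for calcium handling (-0.47), cardiac transcription factors (-0.23), fatty acid genes (-0.18) and immediate early genes (-0.098). They stayed positive for sarcomere (0.305), glycolysis (0.404) and heat shock genes (0.133). Of these lists the Wnt pathway alone lay below all genes.

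No paired analysis was possible because the replicate numbers follow the order of deposition and no label ties tubes of both groups to an animal or day. The number and spread of the tubes, 4 in each group, limit the precision. UN_RFP 5 detected 1226 genes from 7086557 counts, and CI_RFP 8 detected 5886 from 6425794. A gene at 0 in UN_RFP 5 was not detected in that library, and the cause of its few detected genes was not tested.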

Other observations

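Of the genes outside the lists with a count in all 8 libraries, several had every CI_RFP library above every UN_RFP library; they were named after their values were seen, and none passed with edgeR. PNRC2, a coactivator of nuclear receptors, stood at 3577, 4063, 5870 and 5603 CPM in CI_RFP and at 2496, 2215, 1139 and 665 CPM in UN_RFP (2.93-fold; edgeR adjusted p = 0.903). CCNG1, a cyclin induced by p53, stood at 853 to 2009 CPM in CI_RFP and 58.0 to 634 CPM in UN_RFP. PDE4B, which degrades cyclic AMP, stood at 98.6 to 326 CPM in CI_RFP and 0.457 to 15.2 CPM in UN_RFP. TGIF1, a repressor of TGF-beta target genes, was even among the uninjured tubes, at 28.2, 36.3, 20.2 and 19.6 CPM, against 129, 277, 130 and 111 CPM in CI_RFP (6.197-fold; edgeR unadjusted p = 0.147). VDAC2, a channel of the outer mitochondrial membrane, differed least of these, at 1198 to 2055 CPM in CI_RFP and 932 to 1101 CPM in UN_RFP (1.49-fold).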
